A study of Homo sapiens with 18 samples.

Results

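The genes described here encode the mitochondrial respiratory chain and ATP synthase of 786-O cells, a human clear cell renal cell carcinoma (ccRCC) line. They were chosen by symbol alone, as the genes whose symbols begin with the usual prefixes of NADH dehydrogenase, cytochrome bc1, cytochrome c oxidase and ATP synthase subunits, together with SDHA, SDHB, SDHC, SDHD and CYC1. The rule found 81 of the 13141 genes in the expression table. Of these, 74 encode subunits: 35 of complex I, 4 of complex II, 8 of complex III, 12 of complex IV and 15 of ATP synthase (complex V). The remaining 7 share a prefix but are no subunits. They are the assembly factors NDUFAF1, NDUFAF2, NDUFAF3, ATP5SL and ATP5S, the ATP5EP2 pseudogene, and COX4NB, an older name of a protein of the endoplasmic reticulum membrane complex.

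Complexes I and II pass electrons from NADH and succinate to coenzyme Q, complex III passes them on to cytochrome c, and complex IV passes them to oxygen. Complexes I, III and IV pump protons across the inner mitochondrial membrane, and ATP synthase uses the proton gradient to make ATP. Most of the subunits are encoded in the nucleus and imported, and a small core is encoded by mitochondrial DNA, for which the table has 0 rows. In ccRCC, loss of VHL stabilizes the hypoxia-inducible factors (HIFs), and HIF signaling is known to turn cells from respiration towards glycolysis.

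The study asked how PBRM1, a subunit of the PBAF chromatin remodeling complex, and KDM5C, a histone H3K4 demethylase, shape the transcriptome with and without VHL. Gene expression was measured on 18 Illumina arrays in 6 groups of 3: VHL-/- 786-O cells and VHL+/+ 786-O cells, in which VHL is re-expressed, each stably carrying a scramble shRNA (SCR), a PBRM1 shRNA or a KDM5C shRNA. A single shRNA construct stood for each target, all cells had the genetic background of the one line, and the sample titles name no drug or other treatment. The study's methods describe infection with shRNA viral particles and selection of the cells. Every group had its replicates 1 and 2 on chip 1, which held 12 arrays, while chip 2 held the 6 arrays of replicate 3. The labels do not say that replicates came from separate cultures, so the p-values measure the spread between these arrays, which may be technical. Signals come from whole cultures, where fewer cells carrying a transcript and less RNA per cell cannot be told apart.

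The labels could be checked only in part. The PBRM1 signal was not clearly lower on the arrays labelled PBRM1 shRNA, with a log2 fold change of -0.06 ± 0.12 (SE, adjusted p = 0.864) in VHL-/- cells and -0.15 ± 0.12 (adjusted p = 0.639) in VHL+/+ cells. This signal was dim, at 7.02 to 7.52 over all arrays, so it cannot decide whether PBRM1 was knocked down. KDM5C has no row in the table, and the VHL signal did not separate VHL+/+ from VHL-/- cells (0.08 ± 0.09 with SCR, adjusted p = 0.766). The HIF target SLC2A1, a glucose transporter, differed by -1.05 ± 0.11 on the log2 scale in VHL+/+ against VHL-/- cells with SCR (adjusted p = 7.51e-05). Of 9 renal epithelial and ccRCC markers 6 were in the table. VIM read 13.68 to 14.14, CDH2 11.84 to 12.56 and MET 10.32 to 11.2. KRT8 read 9.33 to 10.24, PAX8 8.07 to 8.86, and KRT18 was dim at 7.18 to 7.46. PAX2, LRP2 and GGT1 had no row, and neither had any of the 3 leukocyte markers, so a missing row does not tell cell types apart. The endothelial marker PECAM1 stayed at 6.57 to 6.94, with no row for VWF and CDH5, and the hepatocyte marker ALB at 6.93 to 7.16. The table runs from 6.27 to 14.66 with a median of 7.65. A chip difference was found for 3130 genes (23.8%) and for 26 of the 81 genes described here (32.1%), 24 of them higher on chip 2.

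These were bright probes. Mean log2 signals of the 81 genes ran from 6.8 for NDUFA5 to 13.72 for ATP5B, the catalytic beta subunit of ATP synthase, with a median of 11.21. In all, 67 lay in the brightest 25% of the table and 2 in the dimmest 25%. Signals of different probes are not compared as amounts. The spread of an array around its group, after removal of the chip difference, had a median SD of 0.12 for these genes and for all genes alike.

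Respiratory chain mRNAs changed little in any of the 7 comparisons, which set each knockdown against SCR with and without VHL, and VHL+/+ against VHL-/- cells with SCR and with either knockdown construct. No log2 fold change exceeded 0.45 in size, so that all 81 genes stayed within 1.5-fold (0.58 on the log2 scale) throughout. In 71 of the 81, no comparison passed limma's test at adjusted p under 0.05. Of the other 10, 7 passed in 1 comparison, NDUFA13 and NDUFS3 in 2, and NDUFAF2 in 3. That makes 14 passing results of 567 (2.47%), 8 higher and 6 lower, where all genes gave 3.6%. In all, 65 of the 74 subunits passed in none.

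With PBRM1 shRNA in VHL-/- cells, 0 of the 81 genes rose and NDUFAF2 fell, where 2.79% of all genes rose and 2.65% fell. With PBRM1 shRNA in VHL+/+ cells, 0 rose and NDUFA13 and NDUFAF2 fell, against 1.59% and 0.898% of all genes. With KDM5C shRNA in VHL-/- cells, NDUFS1, NDUFS3 and UQCRC1 rose and NDUFA13 and NDUFAF2 fell, against 2.4% and 2.37%. With KDM5C shRNA in VHL+/+ cells, NDUFS3, NDUFS7 and ATP5G1 rose and 0 fell, against 2.39% and 1.8%. VHL+/+ cells had less NDUFS4 than VHL-/- cells with SCR (1.3% of all genes higher, 1.89% lower), more UQCR with PBRM1 shRNA (1.21% and 1.16%), and more UQCRH with KDM5C shRNA (1.21% and 1.56%). When a change of at least 1.5-fold was required as well, 0 of the 81 genes passed in each of the 7, where 1.81%, 0.944%, 1.46%, 1.14%, 1.03%, 1.02% and 0.89% of all genes did, in the order above. Counts this small, next to these backgrounds, show nothing particular to respiratory genes. At an unadjusted p under 0.05 the numbers were 9, 14, 13, 18, 13, 7 and 16 of the 81. These were 11.1%, 17.3%, 16%, 22.2%, 16%, 8.64% and 19.8%, beside 18.1%, 15.3%, 17.5%, 18.4%, 15.6%, 13.5% and 14.9% of all genes.

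The intervals were narrow enough to bound most of the genes. The 95% confidence interval of the fold change lay wholly within 1.5-fold either way for 80, 78, 77, 78, 80, 78 and 78 of the 81 genes in the 7 comparisons, in the same order. Their median log2 fold change was 0.01, 0.03, -0.03, 0.08, 0.01, 0.01 and 0.08, beside a median of 0 over all genes. The largest values of all were those of NDUFA7, an accessory subunit of complex I, at 0.45 ± 0.14 with either PBRM1 shRNA (adjusted p = 0.112) or KDM5C shRNA (adjusted p = 0.0814) in VHL+/+ cells, and neither passed.

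**Figure D1:**
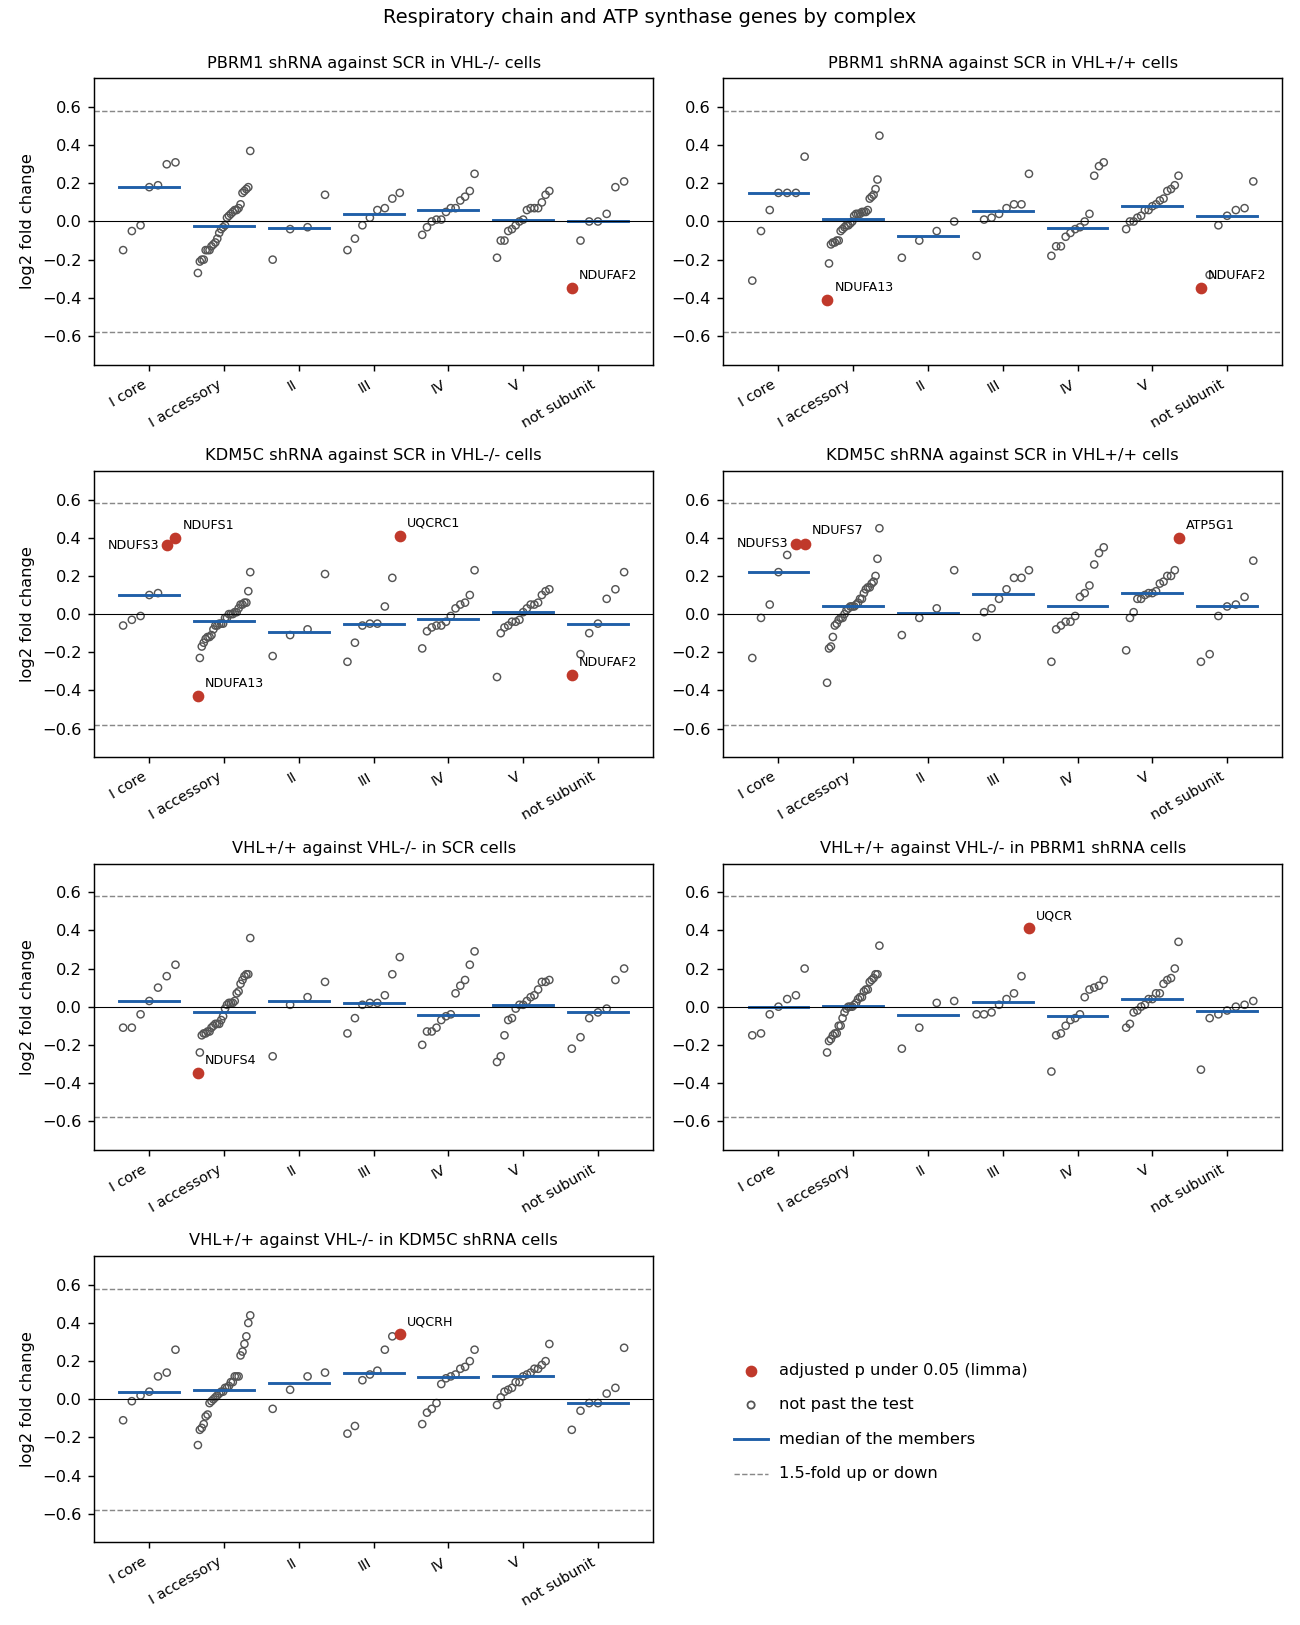
Log2 fold change (vertical axis) of each of the 81 genes in the 7 comparisons, one panel each, grouped by complex on the horizontal axis. Red filled points passed limma's test, open points did not, blue lines are medians and dashed lines mark 1.5-fold; every point lies between the dashed lines.

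The mean signal of each complex moved by even less. After each gene was centered and the chip difference removed, the mean over the 15 ATP synthase subunits was -0.06, -0.06 and 0 on the 3 arrays of VHL+/+ SCR cells and 0.08, 0.05 and 0.1 on those of VHL+/+ KDM5C shRNA cells. These groups did not overlap, and their means were -0.04 and 0.08. Complex III gave 0, -0.03 and 0.01 against 0.11, 0.06 and 0.09 in the same cells, also with no overlap. Complex I gave 0, -0.05 and 0 against 0.04, 0.03 and 0.07, again with no overlap. The mean over all genes described here gave -0.02, -0.04 and 0.01 against 0.05, 0.03 and 0.07, with no overlap either. For complexes II and IV the arrays overlapped. These cases were picked from all complexes and comparisons, and how often such a gap arises in other gene sets was not tested. In VHL-/- cells the ATP synthase mean was -0.02, 0.02 and -0.08 with SCR and -0.07, 0 and -0.04 with KDM5C shRNA, where the arrays overlapped. Complex II had the widest spread, with 0.08, -0.08 and -0.21 on the arrays of VHL+/+ PBRM1 shRNA cells.

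**Figure D2:**
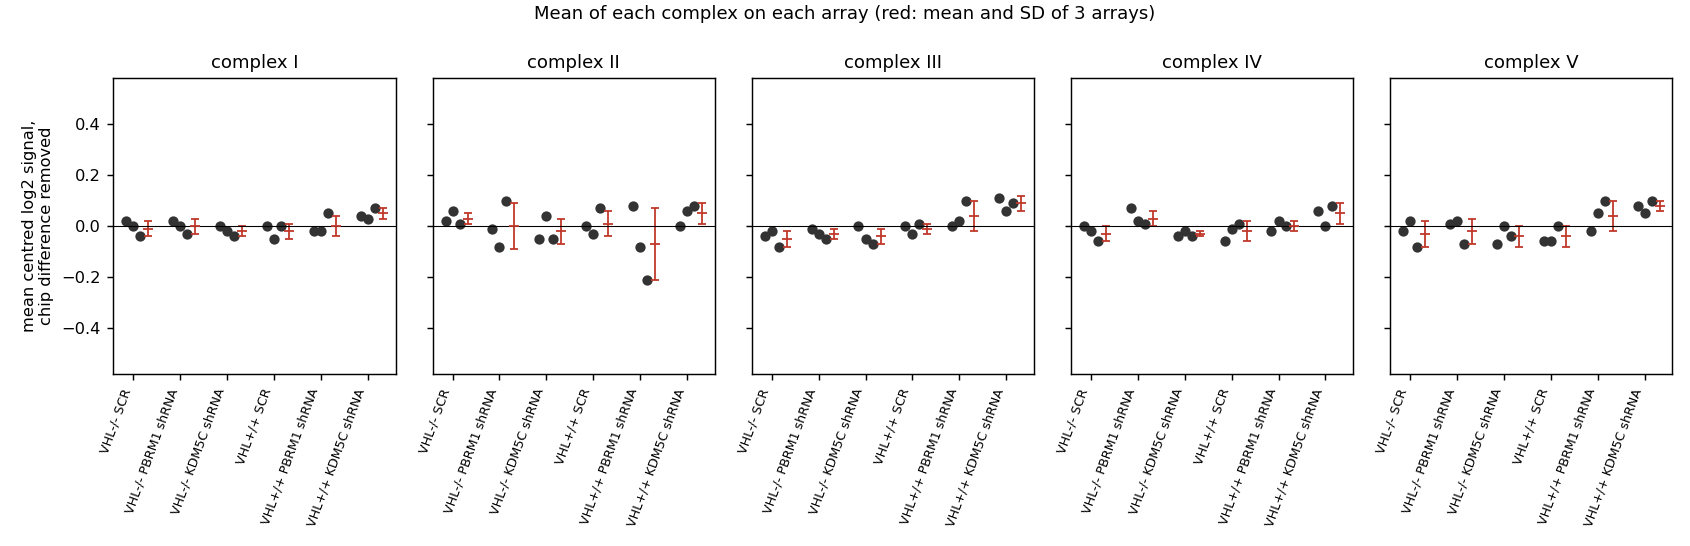
Mean centered log2 signal of the subunits of complexes I to V (panels) on each of the 18 arrays, by group, with the chip difference removed; black points are arrays and red bars the mean and SD of 3. Nearly all arrays lie within 0.1 of 0, and the VHL+/+ KDM5C shRNA arrays are at 0.08, 0.05 and 0.1 for complex V.

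Complex I held 5 of the 9 subunits that passed, NDUFS1, NDUFS3, NDUFS4, NDUFS7 and NDUFA13, where it has 35 of the 74 subunits measured. NDUFAF2, the 10th gene, is an assembly factor of this complex. NDUFS3, a core subunit of the arm that carries electrons to coenzyme Q, was higher in both shRNA groups of both backgrounds. The arrays of VHL-/- cells read 10.77, 10.99 and 10.77 with SCR, 11.12, 11.06 and 11.29 with PBRM1 shRNA, and 11.43, 11.11 and 11.09 with KDM5C shRNA. Those of VHL+/+ cells read 10.93, 10.89 and 10.81 with SCR, 11.16, 11.24 and 11.25 with PBRM1 shRNA, and 11.23, 11.17 and 11.35 with KDM5C shRNA. All 12 shRNA arrays were above all 6 SCR arrays. The difference passed with KDM5C shRNA, at 0.36 ± 0.10 (adjusted p = 0.0421) in VHL-/- cells and 0.37 ± 0.10 (adjusted p = 0.0419) in VHL+/+ cells. With PBRM1 shRNA it was 0.31 ± 0.10 (adjusted p = 0.08) and 0.34 ± 0.10 (adjusted p = 0.0868) and did not pass. The KDM5C and PBRM1 comparisons of one background share their SCR arrays. Between backgrounds the KDM5C effect differed by -0.01 (95% interval -0.3 to 0.28). The calls lay near the threshold. In VHL-/- cells the call was lost without SCR replicate 1 (adjusted p = 0.166), SCR replicate 3 (0.16) or KDM5C shRNA replicate 1 (0.164), and without any of 6 arrays outside the comparison (0.0507 to 0.0556: each VHL+/+ SCR array, VHL+/+ PBRM1 shRNA replicates 2 and 3, and VHL-/- PBRM1 shRNA replicate 1). In VHL+/+ cells it was lost without any of the 6 arrays compared (0.0639 to 0.167) and without either of 2 arrays outside the comparison, VHL+/+ PBRM1 shRNA replicate 2 (0.0557) and, in the other background, PBRM1 shRNA replicate 1 (0.0526).

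A further pair of core subunits rose in 1 comparison each. NDUFS1, the large iron-sulfur subunit, read 7.52, 7.19 and 7.46 with SCR and 7.75, 7.82 and 7.78 with KDM5C shRNA in VHL-/- cells, and these arrays did not overlap. It was higher by 0.40 ± 0.09 (adjusted p = 0.0203), a call lost without SCR replicate 2 (0.119), the lowest array, or KDM5C shRNA replicate 2 (0.0684). In VHL+/+ cells its difference was 0.22 ± 0.09 and did not pass (adjusted p = 0.202). NDUFS7, which carries the last iron-sulfur cluster before coenzyme Q, read 9.88, 9.93 and 9.98 with SCR and 10.26, 10.2 and 10.43 with KDM5C shRNA in VHL+/+ cells. The arrays did not overlap, and NDUFS7 was higher by 0.37 ± 0.09 (adjusted p = 0.0387). That call was lost without any of the 6 arrays compared (0.0656 to 0.134) and without VHL-/- PBRM1 shRNA replicate 2 (0.0503). Over the 7 core subunits the median log2 fold change with KDM5C shRNA was 0.1 in VHL-/- and 0.22 in VHL+/+ cells, and over the 28 accessory subunits -0.03 and 0.04. Of the 7 core subunits 4 were above 0 in VHL-/- and 5 in VHL+/+ cells, where the lowest was NDUFV2 at -0.23 ± 0.13 (adjusted p = 0.364).

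NDUFAF2, a chaperone that binds a late intermediate of complex I and is absent from the finished enzyme, was the gene lower in the most comparisons. With SCR it read 10.34, 10.29 and 10.16 in VHL-/- cells and 10.28, 10.35 and 9.99 in VHL+/+ cells. PBRM1 shRNA arrays read 9.99, 9.97 and 9.79, and 10.04, 9.93 and 9.61. KDM5C shRNA arrays read 10.2, 9.95 and 9.68, and 10.04, 10.04 and 9.91. Within each chip, SCR arrays read higher than every shRNA array of their background in all 4 shRNA comparisons, while across chips some arrays overlapped, as chip 2 read lower by 0.26. NDUFAF2 fell by 0.35 ± 0.08 on the log2 scale with PBRM1 shRNA in VHL-/- cells (adjusted p = 0.0152) and by 0.35 ± 0.08 in VHL+/+ cells (adjusted p = 0.0264), and by 0.32 ± 0.08 with KDM5C shRNA in VHL-/- cells (adjusted p = 0.0264). With KDM5C shRNA in VHL+/+ cells the value was -0.21 ± 0.08 (adjusted p = 0.166). The PBRM1 effect differed between backgrounds by 0 (95% interval -0.24 to 0.24) and the KDM5C effect by -0.11 (-0.35 to 0.12). With PBRM1 shRNA in VHL-/- cells, the call was lost without SCR replicate 1 (0.0501) or 3 (0.0835) or PBRM1 shRNA replicate 1 (0.0561) or 2 (0.0686). In VHL+/+ cells it was lost without SCR replicate 1 (0.0813), 2 (0.0944) or 3 (0.067) or PBRM1 shRNA replicate 2 (0.107) or 3 (0.148). With KDM5C shRNA in VHL-/- cells it was lost without SCR replicate 1 (0.0784), 2 (0.0516) or 3 (0.124) or KDM5C shRNA replicate 2 (0.103) or 3 (0.113).

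NDUFA13, also known as GRIM-19, is an accessory subunit needed to assemble complex I. With SCR it read 9.73, 9.86 and 9.95 in VHL-/- cells and 9.83, 9.48 and 9.95 in VHL+/+ cells. VHL-/- KDM5C shRNA arrays read 9.36, 9.31 and 9.59, all below the SCR arrays of that background. VHL+/+ KDM5C shRNA arrays read 9.78, 9.55 and 9.92, which lay within the SCR range. VHL-/- PBRM1 shRNA arrays read 9.48, 9.66 and 9.6, and VHL+/+ PBRM1 shRNA arrays 9.36, 9.1 and 9.56. NDUFA13 fell by 0.43 ± 0.10 with KDM5C shRNA in VHL-/- cells (adjusted p = 0.0218) and by 0.41 ± 0.10 with PBRM1 shRNA in VHL+/+ cells (adjusted p = 0.0412). In VHL-/- cells with PBRM1 shRNA its value was -0.27 ± 0.10 (adjusted p = 0.16), and in VHL+/+ cells with KDM5C shRNA 0 ± 0.10 (95% interval -0.22 to 0.22). The KDM5C effect differed between backgrounds by -0.43 (-0.73 to -0.12), which did not pass over all genes (adjusted p = 0.457). The KDM5C call was lost without VHL-/- SCR replicate 1 (0.0554) or 2 (0.108) or KDM5C shRNA replicate 2 (0.0679). The PBRM1 call was lost without VHL+/+ SCR replicate 1 (0.201) or 3 (0.16) or PBRM1 shRNA replicate 2 (0.229) or 3 (0.0756), and without any of 5 arrays outside the comparison (0.0511 to 0.0575: each VHL-/- SCR array, VHL-/- PBRM1 shRNA replicate 1 and VHL+/+ KDM5C shRNA replicate 3).

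The 3 genes that passed in more than 1 comparison are shown with the 250 bases before their RefSeq start (GRCh38.p14), to let their promoters be compared. Capitals mark, on either strand, the CCAAT box, the ETS factor core CCGGAAG, and the hypoxia response element, which is read as ACGTG or, equally, as GCGTG.
NDUFS3, chr11:47578824-47579073, plus strand: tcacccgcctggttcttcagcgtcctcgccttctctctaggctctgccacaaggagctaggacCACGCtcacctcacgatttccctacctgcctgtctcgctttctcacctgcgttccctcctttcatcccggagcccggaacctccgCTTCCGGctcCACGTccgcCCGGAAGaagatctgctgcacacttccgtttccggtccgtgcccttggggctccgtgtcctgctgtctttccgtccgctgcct
NDUFAF2, chr5:60944955-60945204, plus strand: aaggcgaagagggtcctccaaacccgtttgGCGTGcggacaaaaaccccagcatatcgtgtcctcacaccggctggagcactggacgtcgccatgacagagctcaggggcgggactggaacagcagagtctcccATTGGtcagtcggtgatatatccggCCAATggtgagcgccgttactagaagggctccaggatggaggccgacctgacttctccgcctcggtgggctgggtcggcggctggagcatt
NDUFA13, chr19:19515975-19516224, plus strand: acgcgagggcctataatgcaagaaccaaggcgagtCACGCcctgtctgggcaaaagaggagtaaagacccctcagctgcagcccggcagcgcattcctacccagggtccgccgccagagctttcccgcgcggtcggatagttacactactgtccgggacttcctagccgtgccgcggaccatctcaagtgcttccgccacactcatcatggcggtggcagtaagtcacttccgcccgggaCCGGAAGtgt
All 3 windows held a hypoxia element. NDUFAF2 had 2 CCAAT boxes and 1 hypoxia element, NDUFS3 had 2 ETS cores and 2 hypoxia elements, and NDUFA13 had 1 of each of these. The gene next to NDUFAF2, ERCC8, lies on the opposite strand with its start inside the NDUFAF2 window. It was looked up after the values of NDUFAF2 were seen. ERCC8, a protein of transcription-coupled DNA repair, read 7.1, 7.2 and 7.25 with SCR and 7.22, 7.08 and 7.12 with PBRM1 shRNA in VHL-/- cells, and passed in none of the 7 comparisons (log2 fold changes of -0.04 to 0.08, adjusted p of 0.789 or more). Its signal was dim, at 7.07 to 7.36 over all arrays beside a table median of 7.65, and a change could be missed there. A match to a motif is only a description of the letters.

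NDUFS4, an accessory subunit whose loss causes Leigh syndrome, was the gene that differed with VHL in SCR cells. It read 10.55, 10.77 and 10.71 in VHL-/- cells and 10.25, 10.16 and 10.57 in VHL+/+ cells, with 1 VHL+/+ array, on chip 2, inside the VHL-/- range. It was lower in VHL+/+ cells, with a log2 fold change of -0.35 ± 0.09 (adjusted p = 0.0377), -0.45 on chip 1 and -0.14 on chip 2. With PBRM1 shRNA the value was -0.18 ± 0.09 (adjusted p = 0.379) and with KDM5C shRNA -0.16 ± 0.09 (adjusted p = 0.426). The call was lost without VHL+/+ SCR replicate 1 (0.17) or 2 (0.156), without VHL-/- SCR replicate 1 (0.0548), 2 (0.173) or 3 (0.0931), and without VHL+/+ PBRM1 shRNA replicate 2 (0.051) or VHL+/+ KDM5C shRNA replicate 3 (0.0522).

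**Figure D3:**
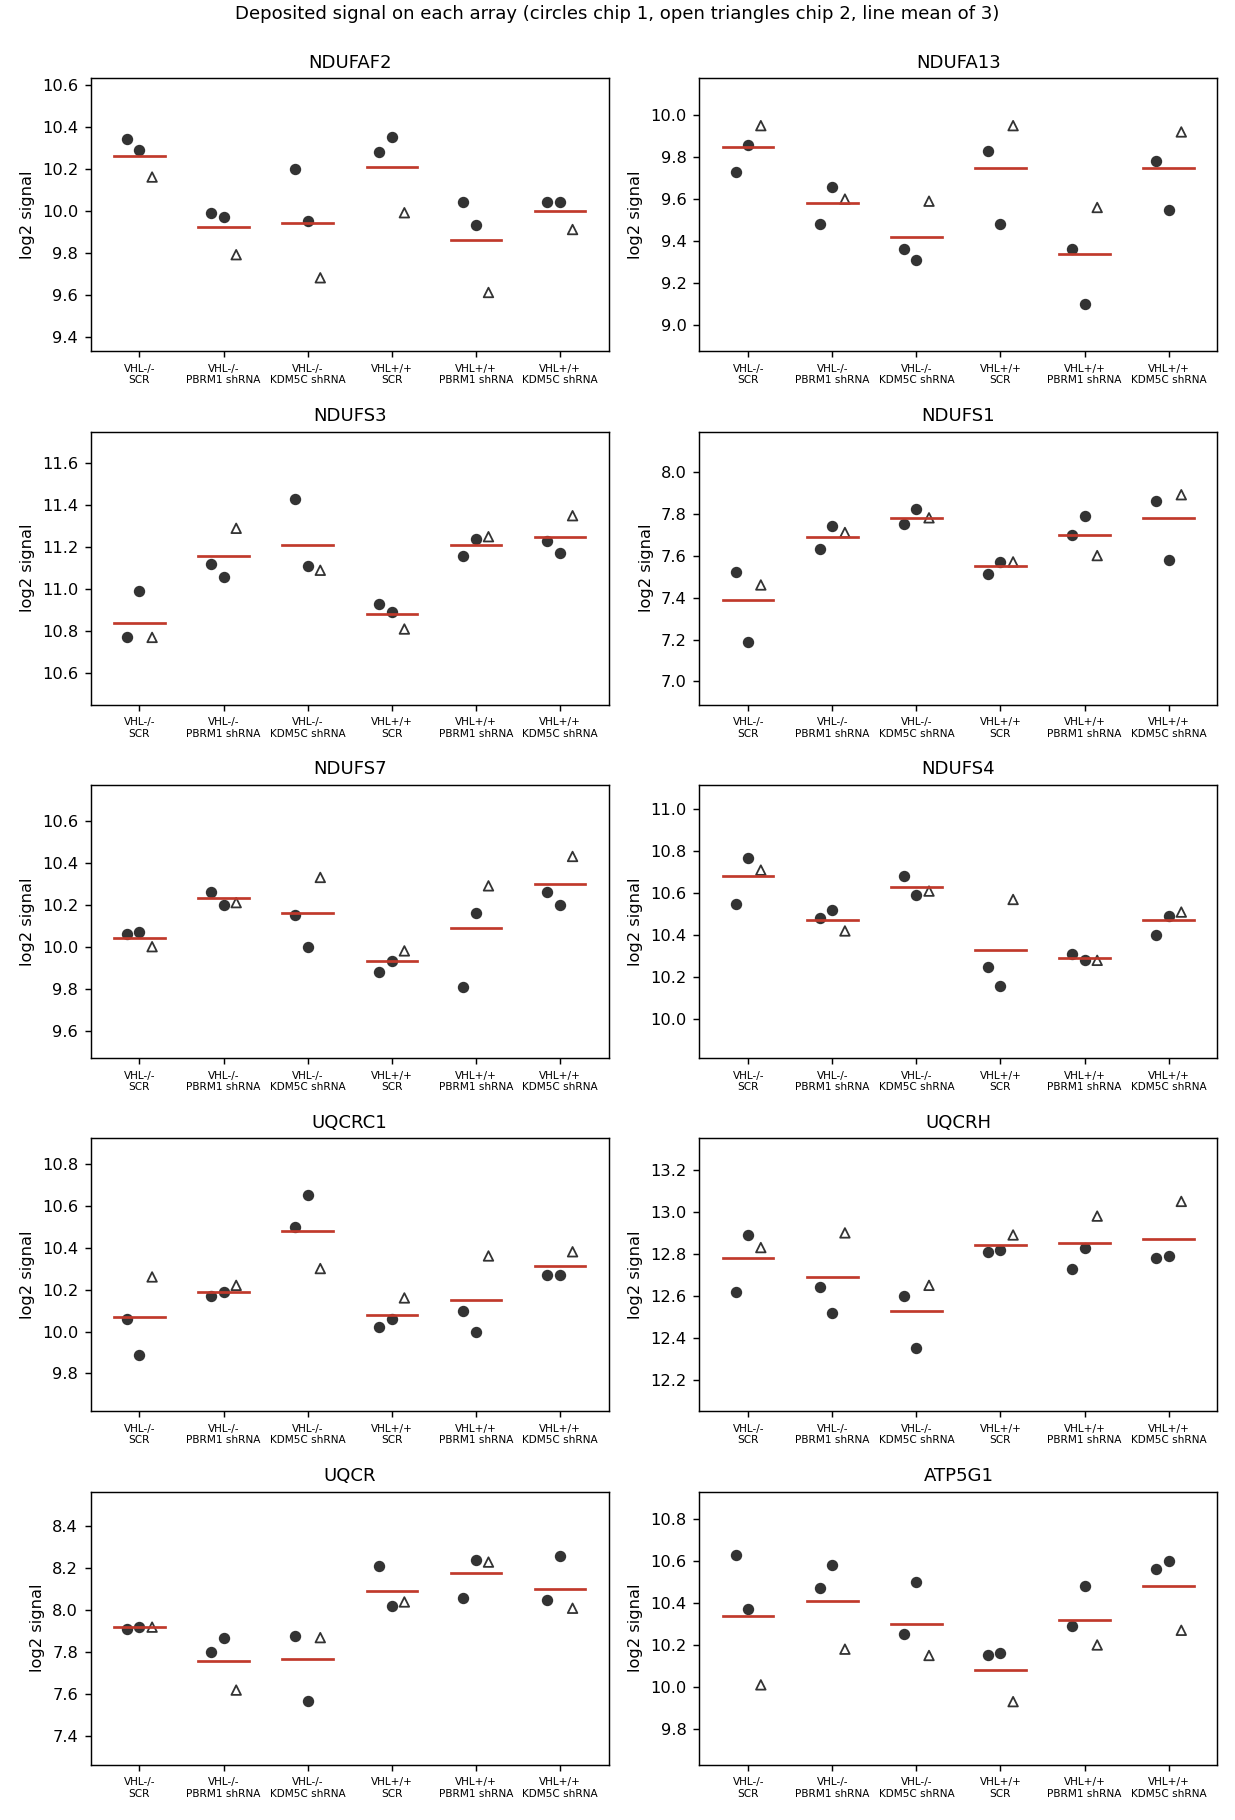
Deposited log2 signal (vertical axis) of the 10 genes that passed in at least 1 comparison, on each array of the 6 groups; circles are chip 1, open triangles chip 2 and lines the mean of 3. Every panel spans 1.3 log2 units; the 12 shRNA arrays of NDUFS3 lie at 11.06 or more and its 6 SCR arrays at 10.99 or less.

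Other complex I subunits with large values did not pass. NDUFB7 was at 0.37 ± 0.11 with PBRM1 shRNA in VHL-/- cells (adjusted p = 0.0575). NDUFA7, given above, had SCR arrays in VHL+/+ cells that read 9.19, 9.24 and 9.78, all below the KDM5C shRNA arrays at 9.88, 9.81 and 9.88. NDUFAB1, the mitochondrial acyl carrier protein, read 12.13, 11.96 and 12.05 in VHL+/+ SCR cells and 11.77, 11.55 and 11.74 with KDM5C shRNA, a difference of -0.36 ± 0.11 (adjusted p = 0.0815), and in SCR cells stood 0.36 ± 0.11 higher in VHL+/+ than in VHL-/- cells (adjusted p = 0.104). NDUFB10 stood 0.44 ± 0.12 higher in VHL+/+ than in VHL-/- cells with KDM5C shRNA (adjusted p = 0.053), and NDUFA3 at -0.24 ± 0.10 (adjusted p = 0.279).

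Complex II is succinate dehydrogenase, the enzyme shared by the respiratory chain and the tricarboxylic acid (TCA) cycle. None of its 4 subunits passed limma's test in any of the 7 comparisons, and 4 of the 28 tests had an unadjusted p under 0.05. Of all genes, 13.5% to 18.4% had one, depending on the comparison. SDHA, the flavoprotein that oxidizes succinate, read 10.08, 9.94 and 10.04 in VHL-/- SCR cells and 9.86 to 10.39 over all 18 arrays. SDHB, the iron-sulfur subunit, read 11.51, 11.56 and 11.35 in VHL-/- SCR and 11.15, 11.25 and 11.24 in VHL+/+ SCR cells. These arrays did not overlap, and the difference of -0.26 ± 0.12 (95% interval -0.52 to -0.01) did not pass (adjusted p = 0.306). In VHL+/+ PBRM1 shRNA cells SDHB had 1 low array, at 10.81 beside 11.41 and 11.44. SDHC, a membrane anchor, was lower with every shRNA, at -0.20 and -0.22 with PBRM1 and KDM5C shRNA in VHL-/- cells and -0.19 and -0.11 in VHL+/+ cells (each SE 0.08), and none of these passed (adjusted p from 0.167 to 0.531). SDHD, the other anchor, had values between -0.11 and 0.14 in the 7 comparisons. All 28 of the 95% confidence intervals of complex II genes lay within 1.5-fold.

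Complex III moves electrons from coenzyme Q to cytochrome c. UQCRC1, one of its core proteins, read 10.06, 9.89 and 10.26 with SCR and 10.5, 10.65 and 10.3 with KDM5C shRNA in VHL-/- cells. The arrays did not overlap, and UQCRC1 was higher by 0.41 ± 0.10 (adjusted p = 0.0245), but the difference was 0.6 on chip 1 and 0.04 on chip 2. The call was lost without SCR replicate 1 (0.0732) or 2 (0.131) or KDM5C shRNA replicate 1 (0.0723) or 2 (0.111), the 4 arrays of chip 1. UQCR, the small subunit now called UQCR11, read 7.8, 7.87 and 7.62 in VHL-/- and 8.06, 8.24 and 8.23 in VHL+/+ cells with PBRM1 shRNA. It was higher in VHL+/+ cells by 0.41 ± 0.10 (adjusted p = 0.0321), and stood 0.33 ± 0.10 higher with KDM5C shRNA (adjusted p = 0.0914) and 0.17 ± 0.10 higher with SCR (adjusted p = 0.445). The PBRM1 shRNA call was lost without VHL+/+ replicate 2 (0.116) or 3 (0.179) or VHL-/- replicate 1 (0.0728), 2 (0.0529) or 3 (0.144).

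UQCRH, the hinge protein that holds cytochrome c1, read 12.6, 12.35 and 12.65 in VHL-/- and 12.78, 12.79 and 13.05 in VHL+/+ cells with KDM5C shRNA. It was higher in VHL+/+ cells by 0.34 ± 0.09 (adjusted p = 0.0457). With SCR the arrays read 12.62, 12.89 and 12.83, and 12.81, 12.82 and 12.89, and the difference was 0.06 ± 0.09 (adjusted p = 0.82). Within KDM5C shRNA cells the groups did not overlap, but the call was the least stable of the 14, and was kept in 5 of the 18 fits that left out 1 array. It was lost without any VHL+/+ KDM5C shRNA array (0.0975, 0.101 and 0.175 for replicates 1 to 3) or VHL-/- KDM5C shRNA replicate 2 (0.17) or 3 (0.0937), and without any of 8 other arrays (0.0515 to 0.0607: each array of VHL+/+ SCR and VHL+/+ PBRM1 shRNA, VHL-/- SCR replicate 3 and VHL-/- PBRM1 shRNA replicate 1). CYC1, cytochrome c1 itself, read 12.27, 12.02 and 11.84 in VHL-/- SCR, 12.24, 11.89 and 12.05 in VHL+/+ SCR, and 12.39, 12.23 and 12.14 in VHL+/+ KDM5C shRNA cells. Its values ran from -0.05 to 0.26 and none passed, the last being VHL+/+ against VHL-/- with KDM5C shRNA (95% interval 0.05 to 0.46, adjusted p = 0.205).

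Complex IV, cytochrome c oxidase, had no subunit that passed limma's test, with 15 of 84 tests at an unadjusted p under 0.05. The share over all genes was 13.5% to 18.4%, depending on the comparison. COX4I1, the regulatory subunit whose alternative form COX4I2 is HIF-induced and has no row in the table, read 13.15, 12.9 and 13.14 in VHL-/- SCR and 12.58, 13.04 and 13.19 in VHL+/+ SCR cells. In VHL+/+ cells with KDM5C shRNA it read 13.24, 13.22 and 13.41, each above the SCR arrays, a difference of 0.35 ± 0.10 (adjusted p = 0.0684). That value leaned on VHL+/+ SCR replicate 1, the lowest of the 18 arrays, without which it was 0.2 (adjusted p = 0.297), while without VHL+/+ SCR replicate 2 it was 0.44 and passed (0.0449). COX4I1 also stood 0.29 ± 0.10 higher with PBRM1 shRNA in VHL+/+ cells (adjusted p = 0.171), and 0.14 (0.593) without that array. NDUFA4, a subunit once assigned to complex I, read 12.6, 12.68 and 12.89 in VHL-/- SCR and 12.96, 12.92 and 13.16 in VHL+/+ SCR cells, which did not overlap. It stood 0.29 ± 0.08 higher in VHL+/+ SCR cells (adjusted p = 0.0668) and -0.25 ± 0.08 with KDM5C shRNA in VHL+/+ cells (adjusted p = 0.0855), both short of the threshold. Its HIF-induced paralog NDUFA4L2 has no row. COX6C had the lowest value of VHL+/+ against VHL-/- cells with PBRM1 shRNA, -0.34 ± 0.12 (adjusted p = 0.2).

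ATP synthase had 1 subunit that passed. ATP5G1 encodes a precursor of subunit c, which forms the rotating ring. It read 10.15, 10.16 and 9.93 with SCR and 10.56, 10.6 and 10.27 with KDM5C shRNA in VHL+/+ cells, with no overlap, and was higher by 0.40 ± 0.09 (adjusted p = 0.0197). In VHL-/- cells it read 10.63, 10.37 and 10.01 with SCR and 10.25, 10.5 and 10.15 with KDM5C shRNA, a value of -0.04 ± 0.09 (adjusted p = 0.897). The KDM5C effect differed between backgrounds by -0.43 (95% interval -0.7 to -0.17), the lowest unadjusted p (0.0035) among the 81 genes for this difference, and did not pass over all genes (adjusted p = 0.388). The VHL+/+ call was lost without any of the 6 arrays compared (0.0506 to 0.0861), at a log2 fold change that stayed between 0.38 and 0.42. Most subunits of the complex had small positive values in 3 comparisons. With KDM5C shRNA in VHL+/+ cells 13 of 15 were above 0 (median 0.11), with PBRM1 shRNA in VHL+/+ cells 13 (median 0.08), and in VHL+/+ against VHL-/- cells with KDM5C shRNA 14 (median 0.12). In VHL-/- cells the counts were 8 with either shRNA, with medians of 0.01. Of the 3 comparisons with 13, 13 and 14 subunits above 0, the first shares arrays with each of the others, and 6562, 6697 and 6715 of all 13141 genes were above 0 in them. The pattern was not confined to ATP synthase. In the same order, complex III had 7, 7 and 6 of 8 subunits above 0, with medians of 0.11, 0.06 and 0.14. Complex I had 24, 19 and 24 of 35, complex II 2, 1 and 3 of 4, and complex IV 6, 4 and 8 of 12. Of the 81 genes, 56, 48 and 58 were above 0.

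No respiratory chain gene showed an shRNA effect that differed between backgrounds past the test. For the PBRM1 shRNA, limma called 0 genes of the whole table (0%), with 553 at unadjusted p under 0.05, 4 of them among the 81. For the KDM5C shRNA it also called 0 (0%), with 1014 at unadjusted p under 0.05, 14 of them among the 81. The 14 were 17.3% of the genes described here, beside 7.72% of all genes. The median difference of the KDM5C effect was -0.10, with 56 of 81 genes below 0. Below 0 means that the fold change of KDM5C shRNA against SCR was higher in VHL+/+ than in VHL-/- cells. Of all 13141 genes 6591 were below 0, with a median of 0. The lowest unadjusted p-values after ATP5G1 belonged to NDUFA4 (0.35 ± 0.11), COX5B (-0.35 ± 0.12) and NDUFA13 (-0.43 ± 0.14). The 2 backgrounds share no arrays, and the sign of the KDM5C effect was the same in both for 39 of 81 genes (48.1%) and for 62% of all genes. For the PBRM1 effect it was the same for 47 of 81 (58%) and for 65.8% of all genes. Pearson's r between backgrounds across the 81 genes was 0.21 for KDM5C and 0.47 for PBRM1 (Spearman's rho 0.18 and 0.39), where it was 0.56 and 0.69 across all genes. Genes are not independent replicates, and both backgrounds were run on the same chips.

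Genes that work around the respiratory chain were measured in 8 related lists. Among them COQ9, a lipid-binding protein of coenzyme Q synthesis, rose by 0.38 ± 0.07 (adjusted p = 0.00423) and 0.31 ± 0.07 (0.0246) with PBRM1 shRNA in VHL-/- and VHL+/+ cells and by 0.37 ± 0.07 (0.00815) with KDM5C shRNA in VHL+/+ cells, and was 0.49 ± 0.07 higher (0.000907) in VHL+/+ than in VHL-/- cells with KDM5C shRNA. CYCS, cytochrome c, rose by 0.38 ± 0.10 and 0.35 ± 0.10 with PBRM1 and KDM5C shRNA in VHL-/- cells (0.026 and 0.0466). ETFDH, which feeds electrons from fatty acid oxidation to coenzyme Q, was 0.51 ± 0.13 higher in VHL+/+ SCR cells (0.0419). Over the 16 genes of coenzyme Q and cytochrome c, 7 of 112 tests were higher and 0 lower (6.25%), 4 of the 7 being COQ9, where 3.6% of tests over all genes passed. SLC25A3, the phosphate carrier that supplies ATP synthase, rose by 0.37 ± 0.08 with PBRM1 shRNA in VHL+/+ cells and by 0.40 ± 0.08 and 0.36 ± 0.08 with KDM5C shRNA in VHL-/- and VHL+/+ cells (0.0184, 0.00678 and 0.0165). These were the 3 passing results of the 56 tests on 8 ATP synthase regulators and carriers (5.36%).

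Mitochondrial ribosomal proteins, which translate the subunits encoded by mitochondrial DNA, had 15 tests higher and 1 lower of 525 (75 genes, 3.05%), a share below the 3.6% over all genes. With PBRM1 shRNA in VHL-/- cells the genes with the lowest adjusted p were MRPL38 (0.53 ± 0.11), MRPL20 (0.49 ± 0.10) and MRPL52 (0.29 ± 0.06), of 4 that rose. With KDM5C shRNA in VHL-/- cells MRPL52 (0.30 ± 0.06), MRPL38 (0.52 ± 0.11) and MRPS10 (0.93 ± 0.21) rose, and in VHL+/+ cells MRPL20 (0.52 ± 0.10), MRPS11 (0.40 ± 0.09) and MRPS12 (0.31 ± 0.07) led 7 that rose. In VHL+/+ against VHL-/- cells with PBRM1 shRNA, MRPL33 was higher (0.31 ± 0.08) and MRPS11 lower (-0.41 ± 0.09). Among 21 assembly factors of complexes II to V only COX15, which makes the heme of cytochrome c oxidase, passed (1.36% of tests), by 0.34 ± 0.08 with KDM5C shRNA in VHL+/+ cells (adjusted p = 0.0207) and by 0.34 ± 0.08 in VHL+/+ against VHL-/- cells with KDM5C shRNA (0.0246). Of the 9 assembly factors of complex I, 3 of them counted among the 81 genes, NDUFAF2 alone passed (4.76% of tests).

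Of 18 TCA cycle enzymes and pyruvate dehydrogenase subunits, DLAT rose with PBRM1 shRNA (0.33 ± 0.08, adjusted p = 0.0161) and IDH3B with KDM5C shRNA (0.28 ± 0.07, 0.019), both in VHL-/- cells (1.59% of tests). None of the 17 regulators of mitochondrial biogenesis passed in the 119 tests by limma, of which 15 had an unadjusted p under 0.05. The share over all genes was 13.5% to 18.4%, depending on the comparison. Of 7 HIF-linked regulators of respiration, EGLN3, an oxygen sensor that is itself a HIF target, was lower in VHL+/+ than in VHL-/- cells with PBRM1 shRNA (-0.98 ± 0.16, adjusted p = 0.00202) and KDM5C shRNA (-1.35 ± 0.16, 0.000142), and rose by 0.80 ± 0.16 with KDM5C shRNA in VHL-/- cells. BNIP3L, a mitophagy receptor, was lower in VHL+/+ cells with the same shRNAs (-0.57 ± 0.12 and -0.71 ± 0.12). In all, 1 of 49 tests of this list was higher and 4 lower (10.2%). With SCR, none of the 7 passed in VHL+/+ against VHL-/- cells, where 3.2% of all genes did, and their lowest value was -0.51. The passing changes of EGLN3 and BNIP3L were larger in size than any value of the 81 respiratory genes.

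Promoters of the respiratory genes held 2 of 5 short sequences more often than those of other genes by over 3 times, as a description. RefSeq promoters of 300 bases (250 before and 50 after the start) were found for 65 of the 81 genes, 81 promoters in all. The NRF1 core GCATGCGC, bound by a known activator of respiratory genes, was in 16% of them, beside 4.49% of 13528 promoters of table genes and 3.05% of all 35116 promoters. The YY1 core AANATGGC, which can overlap a start codon, was in 33.3%, beside 9.03% and 6.58%. The ETS core CCGGAAG was in 27.2%, beside 16% and 10.3%. CCAAT was in 33.3% (35% and 34.6%) and the hypoxia response element in 60.5% (59.5% and 48.4%). Both strands were searched, and no test was made. Some genes had several promoters that overlap.

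**Figure D4:**
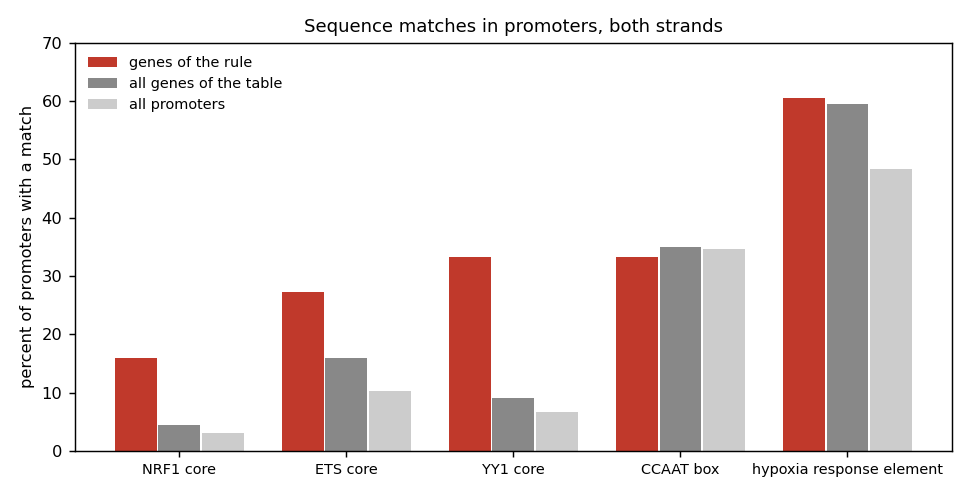
Percent of 300-base RefSeq promoters (vertical axis, from 0) that hold each sequence on either strand, for the respiratory genes, for all genes of the table and for all promoters. The NRF1 core is in 16%, 4.49% and 3.05%, and the hypoxia response element in 60.5%, 59.5% and 48.4%.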

How the data were processed

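Gene expression was measured in 18 samples of 786-O cells on Illumina HumanHT-12 V4 BeadChips. The authors deposited log2 signal values, 1 row for a gene: per the study's methods the background was corrected, the arrays were quantile-normalized, probes were filtered on detection and those of a gene were averaged. The submitters' processing notes name GenomeStudio and limma without versions. Whether the batch correction of the study's heat maps went into these values is not given in the sources used here, and neither are probe sequences, so cross-hybridization with pseudogenes was not tested. Arrays have no read depth, and their number limits the precision.

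From these values, limma 3.58.1 in R 4.3.3 was fitted to all 18 arrays with a term for each of 6 groups and one for the chip (11 residual degrees of freedom), with empirical Bayes moderation and Benjamini-Hochberg adjustment over 13141 genes in each comparison. The fit was tested on simulated data. The ± after a fold change is its standard error. Chip-removed values subtract the fitted chip difference.

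The genes, the 8 related lists (written from general knowledge) and the tests were chosen with earlier results of these data known. Named are the complex II genes, CYC1, NDUFA4 and COX4I1, the genes past adjusted p under 0.05 with the lowest p in each comparison (up to 5 each way, and up to 3 in a related list), the largest change each way, genes caught by the rule that are no subunits, and label checks. Other genes were named after their values were seen: COX5B, NDUFV2 and ERCC8, and the dimmest and brightest genes. Sequences came from RefSeq (GRCh38.p14): 60 symbols were current, 20 matched 1 synonym and 1 had no single match. NDUFA4L2, COX4I2 and KDM5C have no row.

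The alternatives dropped the chip term, replaced it with a replicate block, fitted only arrays of the comparison, or used: the dimmest 25% of genes left out, median centering, cyclic loess, moderation with trend and robust, a 1.5-fold threshold, chip 1 alone, and each array left out in turn.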

Additional observations from a re-analysis of the deposited data

How the results depend on the processing

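Counts of passing genes are given in the order PBRM1 shRNA in VHL-/- (1) and VHL+/+ cells (2), KDM5C shRNA in VHL-/- (5) and VHL+/+ cells (3), and VHL+/+ against VHL-/- with SCR (1), PBRM1 shRNA (1) and KDM5C shRNA (1). They fell to 0, 0, 1, 0, 0, 0 and 0 with no chip term and to 0 in each with a 1.5-fold threshold. With only the arrays of the comparison they were 1 for PBRM1 shRNA in VHL+/+ cells, 1 for KDM5C shRNA in VHL-/- cells and 0 for VHL with either PBRM1 or KDM5C shRNA. Trend and robust moderation gave 0 for PBRM1 shRNA in VHL+/+ cells, 3 and 1 for KDM5C shRNA, and 0 for VHL with SCR and with KDM5C shRNA. Chip 1 alone gave 0 for PBRM1 shRNA in VHL+/+ cells, 2 and 0 for KDM5C shRNA, 0 for VHL with PBRM1 shRNA and 2 with KDM5C shRNA. For VHL with KDM5C shRNA the count was also 0 with cyclic loess and 2 without the dimmest genes. The cause was not tested. On chip 1 alone the median log2 fold change of VHL with SCR was -0.06 in place of 0.01.

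Leaving out each array in turn gave counts of 0 to 2, 0 to 3, 1 to 6, 0 to 4, 0 to 2, 0 to 1 and 0 to 4, and 0 for both differences between backgrounds. The medians ran from 0 to 0.03, 0.01 to 0.04, -0.04 to -0.01, 0.05 to 0.08, -0.03 to 0.01, -0.02 to 0.02 and 0.05 to 0.1.

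No pairing by replicate number was seen. After the chip difference was removed, same-numbered arrays of 2 groups correlated at -0.58 to 0.15, and at -0.46 to 0.15 for replicates 1 and 2. Replicate 3 is all of chip 2, so the removal makes each gene's remainders sum to 0 over its arrays, which cannot show a pairing. Before the removal, 12 of 18 arrays correlated best with their own number, but for replicate 3 a shared number and a shared chip cannot be told apart. With the replicate block in place of the chip the count for VHL with KDM5C shRNA was 0, and the other counts stayed within 1.5 times. No alternative reversed a direction that passed. Probe brightness limits the dim genes, 2 of the 81 being in the dimmest 25%.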
